A study of Homo sapiens with 4 samples.

Results

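Selenoproteins are the proteins that carry selenocysteine, an amino acid in which selenium takes the place of the sulfur of cysteine. The 10 genes described here are GPX1, GPX4, GPX3, SELENOP, SELENOW, SELENOM, SELENOK, SELENOS, SELENOT and SELENOF, chosen by name among the 58735 genes of the expression files and all 10 found there. They are a part of the 25 human selenoprotein genes, and the other 15 are described after them. RNA was sequenced from U251 and U87, established cell lines from human glioblastomas. Both were measured as Control, which was not given brusatol, and as Bru, which received brusatol, a plant quassinoid known to lower protein synthesis and the NRF2 protein, for 48 h at the IC50 of the line. Brusatol was dissolved in DMSO. The study's colony and apoptosis assays used DMSO alone as control, and whether the sequenced Control cells received it is not stated in the sources used here. There were 4 libraries, 1 for each line and condition, so no replicate exists and no p-value is given.

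Selenocysteine is coded by UGA, which elsewhere is a stop codon. A stem-loop in the 3′ untranslated region of the mRNA, the SECIS element, recruits SECISBP2 and the elongation factor EEFSEC with a dedicated tRNA, and the ribosome then reads UGA as an amino acid. When selenium is short, some selenoprotein mRNAs are lost by nonsense-mediated decay, the removal of mRNAs that stop well before their last exon junction, whereas others are spared. In glioma cells the family is best known for GPX4, which reduces lipid peroxides and restrains ferroptosis.

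The codon that makes these genes a family is given here for 6 members, with UGA written as TGA in capitals and the 12 bases to either side in lower case, or fewer where the coding sequence ends. They are shown because they place the codon in different parts of the protein: near the front in SELENOW, inside the enzyme fold of GPX1 and GPX4, in the middle of SELENOF, and within the last 3 codons in SELENOK and SELENOS. Sequences and positions are those of GENCODE release 29 on GRCh38, 5′ to 3′ on the coding strand.
GPX1: gtggcgtccctcTGAggcaccacggtc
GPX4: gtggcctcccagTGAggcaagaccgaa
SELENOW: tattgtggcgctTGAggctacaagtcc
SELENOF: gaagtttgtggaTGAaaattgggaagg
SELENOK: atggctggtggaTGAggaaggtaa
SELENOS: tcatctggcggaTGAggctaa
In GPX1 (chr3:49358132-49358134, minus strand) the codon is number 49 of 203 and lies in exon 1 of 2. GPX4 has it at chr19:1105403-1105405, plus strand, as codon 73 of 197 in exon 3 of 7. SELENOW carries it at chr19:47780732-47780734, plus strand, as codon 13 of 87, and SELENOF at chr1:86880690-86880692, minus strand, as codon 96 of 165. In SELENOK (chr3:53885831-53885833, minus strand) it is codon 92 of 94, and in SELENOS (chr15:101272777-101272779, minus strand) it is codon 188 of 189. The last exon junction lies 5 bases after the codon in SELENOK and 13 bases after it in SELENOS, against 78 bases in SELENOF, 105 in GPX1, 243 in SELENOW and 342 in GPX4. SELENOP has 10 such codons, the first at codon 59 of 381 and the other 9 between codons 300 and 378, in its last exon.

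**Figure D1:**
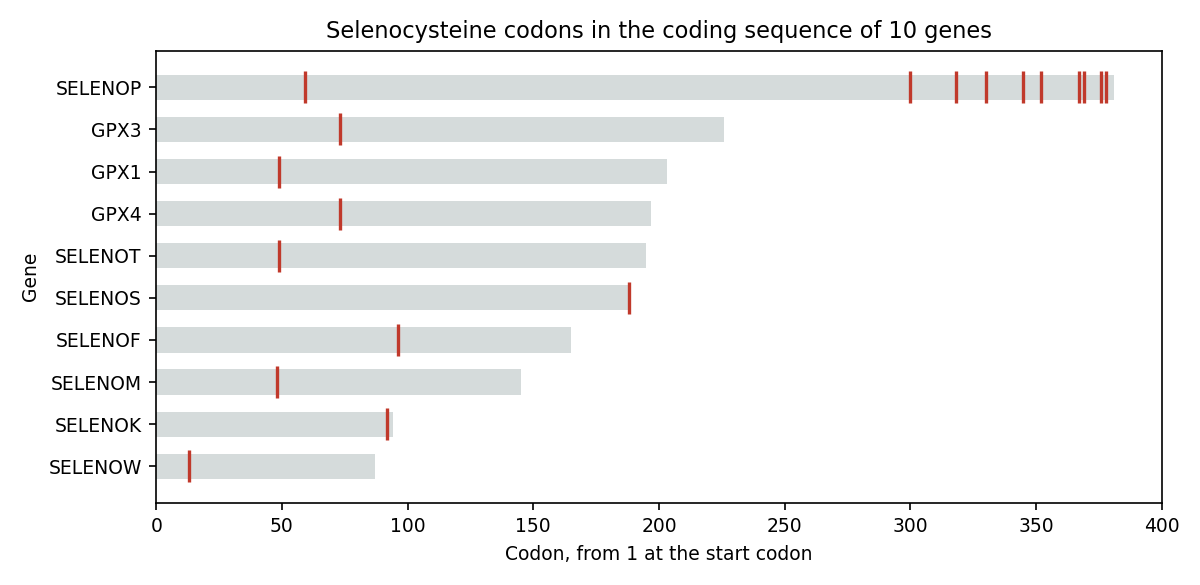
Coding sequence of each of the 10 genes as a grey bar, in codons from the start codon, with each selenocysteine codon as a red line. SELENOP holds 10 selenocysteine codons and each other gene 1, which sits at codon 13 of 87 in SELENOW and at codon 188 of 189 in SELENOS.

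The values are FPKM, fragments scaled to gene length and to library size, from which the authors' whole fragment numbers, called reads here, were recovered. Libraries held between 17083896 and 21453561 reads. A ratio is given as log2 of Bru over Control on FPKM + 0.1, and the 95% interval in brackets is the exact interval of the ratio of reads, which covers counting error only and not the spread between cultures. Of all genes, 12949 had a mean FPKM of at least 1 and are called tested. The glial and mesenchymal genes VIM (FPKM 606 to 701) and CD44 (94.5 to 125) were high in all 4 libraries, whereas SOX2 was at 129 and 91.2 in U251 and at 0 and 0.046 in U87. GFAP, the defining filament of astrocytes, was low at 0.147 to 2.42. Of the other glial genes looked at, NES was at 125 and 50.6 in U251 and at 1.46 and 0.569 in U87. OLIG2 was low at 0.0284 to 1.05, and S100B was at 0.296 in Control U251 and at 0 elsewhere. Leukocyte, endothelial and hepatocyte genes such as PTPRC, PECAM1 and ALB were near 0, with the highest value at 0.506 for CD68 in Control U87, and of the neuronal genes RBFOX3 was near 0 and SYT1 at 1.73 to 6.02. In bulk RNA, fewer cells that express a gene and less RNA per cell cannot be told apart.

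In U251 the 10 members fell into an abundant group of 7 and a scarce group of 3, with SELENOW at FPKM 13.1 and GPX3 at 0.362 in Control. In U87 Control the step between these groups was small, from SELENOW at 4.28 to SELENOM at 2.48. GPX1, GPX4 and SELENOF led in every library, followed by SELENOS, SELENOK, SELENOT and SELENOW, and SELENOM, GPX3 and SELENOP came last. GPX1 and GPX4 together made up 66.5% of the FPKM of the 10 genes in Control U251 and 71.4% with Bru, and 72.0% in Control U87 and 78.5% with Bru. The sum over the 10 genes was 482 FPKM without and 512 with Bru in U251, and 446 without and 500 with Bru in U87. By FPKM, SELENOS and SELENOK stood above SELENOT in U251, and SELENOT stood above both in U87. Per length of 1 transcript with the selenocysteine codon, a scale chosen after the data were seen, SELENOS stood above SELENOT in U87 too. The values were 53.3 against 35.1 in Control and 49.7 against 30.0 with Bru. On this scale SELENOF was level with SELENOS in U87 Control, at 53.3, and below it with Bru, at 42.2.

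No tested member changed by more than 2-fold with Bru in either line. That was 0 of 8 in U251 and 0 of 8 in U87, where 8.80% and 3.34% of all tested genes passed 2-fold in either direction. GPX3 and SELENOP were below the level for testing, and SELENOM was above it only through U87. The smaller shifts fell on both sides. In U251 the counting interval lay above 0 for 3 of 8 tested members (GPX1, GPX4 and SELENOS) and below 0 for 3 of 8 (SELENOW, SELENOK and SELENOF), beside 30.9% and 35.9% of all tested genes. In U87 it lay above 0 for GPX1 and GPX4, 2 of 8 beside 15.7% of tested genes, and below 0 for SELENOM, SELENOT and SELENOF, 3 of 8 beside 28.0%. Over the 8 tested members the median was -0.10 for U251 and -0.11 for U87 on the log2 scale, beside -0.03 and -0.04 over all tested genes. With the untested GPX3 and SELENOP included it was 0.07 and -0.16.

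GPX1 and GPX4 were the members above Control in both lines. This was 2 of 8 tested members, beside 10.1% of all tested genes. Both are glutathione peroxidases, which use glutathione to reduce peroxides. GPX1, the abundant cytosolic enzyme that acts on hydrogen peroxide, stood at FPKM 176 without and 193 with Bru in U251, and at 191 without and 237 with Bru in U87. It was thus highest in U87 Bru, and its log2 ratio came to 0.13 (0.08 to 0.19) in U251 and to 0.31 (0.25 to 0.36) in U87. The difference between lines was 0.17 (0.10 to 0.25), beyond the counting error.

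GPX4, the enzyme that reduces phospholipid hydroperoxides in membranes, was at FPKM 145 without and 173 with Bru in U251, and at 130 without and 156 with Bru in U87. Both Bru libraries were above both Control libraries. Its log2 ratio came to 0.25 (0.20 to 0.31) in U251 and 0.26 (0.21 to 0.32) in U87, and the difference of 0.01 (-0.07 to 0.09) did not pass the counting error. Among all tested genes, 27.8% had a ratio at least as high in U251 and 13.0% in U87. The FPKM of GPX1 was 1.21 times that of GPX4 in Control U251 and 1.12 times with Bru, and 1.47 times in Control U87 and 1.52 times with Bru. This order depends on the length used, because the gene lengths in the files join the exons of all transcripts. Per transcript length GPX4 came first at 318 in U251 Control and GPX1 second at 219, and this order held in all 4 libraries.

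GPX3, the glutathione peroxidase secreted into plasma, was scarce. In U251 its FPKM was 0.362 without and 0.392 with Bru, from 24 and 23 reads, and in U87 it was 1.12 without and 0.926 with Bru, from 64 and 51 reads. Both U87 libraries stood above both U251 libraries. No difference with Bru was detectable at this depth, with a log2 ratio of 0.09 (-0.77 to 1.01) in U251 and -0.25 (-0.83 to 0.28) in U87.

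SELENOP, the plasma protein that carries selenium from the liver to other tissues, was the lowest member. It had 2 and 6 reads in U251 Control and Bru (FPKM 0.0168 and 0.0569) and 35 and 28 reads in U87 (0.341 and 0.283). Whether Bru changed it could not be told in U251, where the ratio of reads, with no pseudocount, was 1.76 on the log2 scale with an interval from -0.72 to 5.10, or in U87, where it was -0.27 (-1.04 to 0.49). SELENOP shares 36.1% of its 5688 exon bases with CCDC152 and AC008945.1 on the other strand, and CCDC152 had 0 reads in both U251 libraries and 238 and 262 in U87. The sources used here do not state that counting used strand, so reads of SELENOP and CCDC152 cannot be told apart where they overlap. LRP8, a receptor that takes up SELENOP, was at FPKM 8.94 without and 3.89 with Bru in U251, and at 11.0 and 8.14 in U87.

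SELENOW, a small thioredoxin-fold protein of the cytosol, was higher in U251 than in U87. It stood at FPKM 13.1 without and 10.7 with Bru in U251, and at 4.28 without and 4.30 with Bru in U87. The U251 libraries did not overlap those of U87. Its log2 ratio with Bru was -0.28 (-0.40 to -0.17) in U251 and 0.01 (-0.20 to 0.21) in U87, a difference of 0.29 (0.06 to 0.53).

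SELENOF and SELENOM are related thioredoxin-fold proteins of the endoplasmic reticulum. SELENOF binds UGGT1, the sensor of misfolded glycoproteins. It was at FPKM 86.0 without and 73.3 with Bru in U251, and at 43.1 without and 34.2 with Bru in U87, so that both U251 libraries were above both U87 libraries and Bru was below Control in each line. With Bru, U251 stood at -0.23 (-0.30 to -0.16) on the log2 scale and U87 at -0.33 (-0.44 to -0.23). SELENOF was the 1 tested member of 8 below Control beyond counting error in both lines, beside 18.0% of all tested genes.

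SELENOM had 16 and 11 reads in U251 Control and Bru, an FPKM of 0.239 and 0.186. In U87 it had 143 and 86 reads, an FPKM of 2.48 and 1.55. Its lower level in U87 Bru, with a log2 ratio of -0.65 and an interval without the pseudocount from -1.08 to -0.28, was the largest shift among the tested members, and 3.68% of tested genes had a ratio as low or lower. In U251 the interval ran from -1.61 to 0.84, so that a change of the same size was not detectable. The difference between lines, -0.32 (-1.59 to 1.01), did not pass the counting error.

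SELENOK, SELENOS and SELENOT are anchored in the membrane of the endoplasmic reticulum. SELENOK and SELENOS belong to the complex that pulls misfolded proteins out for degradation, with the derlins and the ATPase VCP, and SELENOK also works with the palmitoyl transferase ZDHHC6. SELENOK was at FPKM 21.98 without and 18.6 with Bru in U251, and at 23.7 and 21.9 in U87. It was lowest in U251 Bru, with a log2 ratio of -0.24 (-0.38 to -0.10), and in U87 the ratio of -0.12 (-0.25 to 0.02) did not pass the counting error.

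SELENOS was at FPKM 23.0 without and 26.1 with Bru in U251, and at 20.4 and 19.0 in U87. Its log2 ratio came to 0.18 (0.09 to 0.28) in U251 and -0.10 (-0.21 to 0.01) in U87, and the difference of -0.28 (-0.43 to -0.14) was beyond the counting error. SELENOT, a thioredoxin-fold oxidoreductase, was at 16.6 and 17.1 in U251 and at 29.5 and 25.2 in U87. Both U87 libraries were above both U251 libraries. Bru was not separable from Control in U251 (0.04, -0.07 to 0.15) and was below it in U87 (-0.22, -0.32 to -0.14), and the difference was -0.26 (-0.41 to -0.12). SELENOT shares 61 exon bases, 1.48% of its length, with SERP1 on the other strand.

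**Figure D2:**
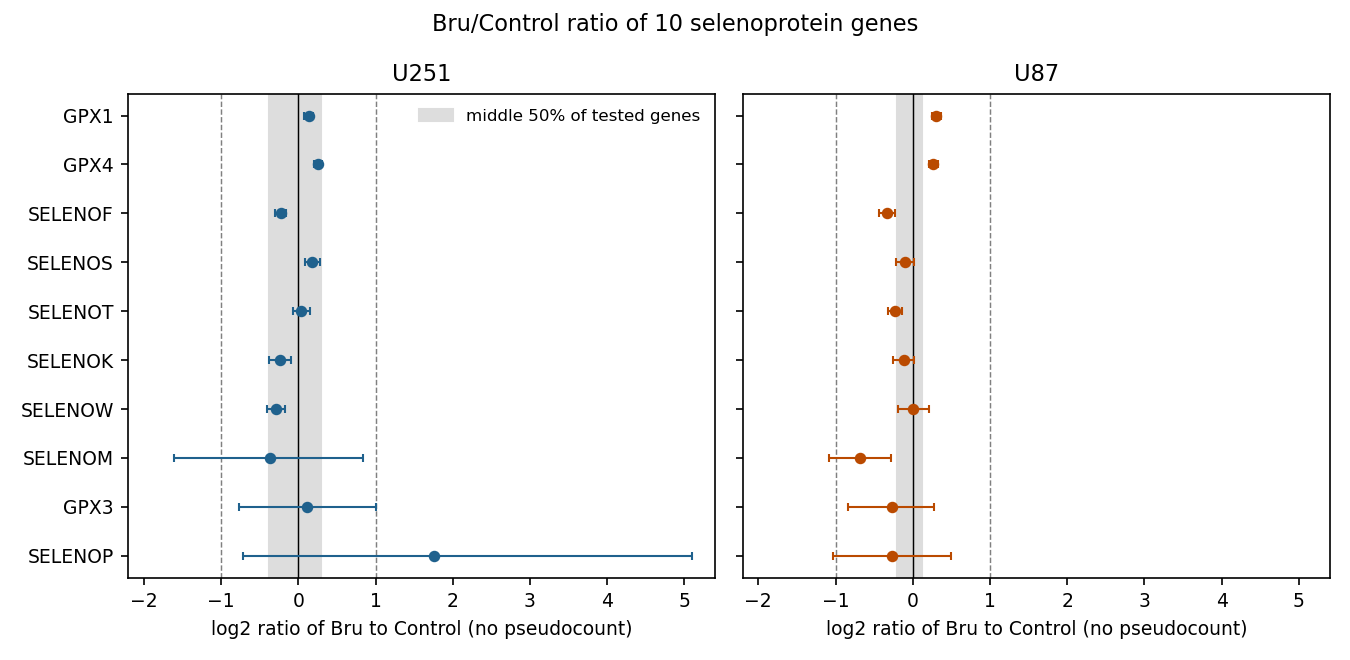
Log2 ratio of Bru to Control without a pseudocount for the 10 genes in U251 (left) and U87 (right), with the exact 95% interval for counting error. The grey band holds the middle 50% of tested genes and dashed lines mark 2-fold. GPX1 and GPX4 lie above 0 in both lines and SELENOF below 0 in both, and the intervals of SELENOM, GPX3 and SELENOP in U251 are wide because they rest on 24 reads or fewer in each library.

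Set beside the distance from the codon to the last exon junction, the ratios with Bru were as follows, and their relation was not tested. SELENOK and SELENOS, with the junction 5 and 13 bases after the codon, were at -0.24 and 0.18 in U251 and at -0.12 and -0.10 in U87. The other 6 tested members, with the junction 78 to 470 bases after it, ranged from -0.28 to 0.25 in U251 and from -0.65 to 0.31 in U87.

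Between the Control libraries of the lines, SELENOM, SELENOW and SELENOF showed the widest gaps among the tested members. Of the 8, 1 was over 2-fold higher in U87 Control than in U251 Control (SELENOM) and 1 over 2-fold lower (SELENOW), beside 14.5% and 16.0% of all tested genes. SELENOM entered the tested genes only through the line in which it is high, and with a minimum mean FPKM of 5 no member was over 2-fold higher, so its count is no support for a difference. SELENOM was 10.4-fold higher in U87, and its ratio of reads was 3.37 on the log2 scale (2.63 to 4.22). SELENOW was 3.05-fold lower, with a log2 ratio of -1.59 (-1.77 to -1.45). SELENOF lay just inside 2-fold at -0.99 (-1.08 to -0.91), and it passed 2-fold when the libraries were scaled to TPM or to the upper quartile. SELENOT was higher in U87 at 0.82 (0.73 to 0.92). The neighbours at the top of the order differed less, with GPX1 at 0.12 (0.06 to 0.18) and GPX4 at -0.16 (-0.21 to -0.10). For the untested GPX3 and SELENOP the ratios of reads were 1.63 (0.93 to 2.37) and 4.34 (2.38 to 7.45), the latter against 2 reads. The gap for SELENOP cannot be assigned to that gene alone. The overlapping CCDC152 had 0 reads in U251 Control and 238 in U87 Control, and their reads cannot be told apart where they overlap. SELENOS was at -0.18 (-0.28 to -0.07), and SELENOK at 0.11 (-0.02 to 0.24) did not pass the counting error.

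Of the other 15 selenoprotein genes, 10 were tested, and 0 of 10 passed 2-fold with Bru in either line, beside 8.80% and 3.34% of all tested genes. In U251 the interval lay above 0 for 5 and below 0 for 2, beside 30.9% and 35.9%, and in U87 above 0 for 2 and below 0 for 2, beside 15.7% and 28.0%. Of the thioredoxin reductases, which keep thioredoxin reduced, TXNRD1 and TXNRD2 were above Control in both lines and TXNRD3 was not. Among all tested genes, 10.1% were above Control in both lines. TXNRD1, the cytosolic enzyme, was at FPKM 119 and 124 in U251 and at 94.3 and 119 in U87, with log2 ratios of 0.05 (0.02 to 0.08) and 0.33 (0.29 to 0.37). TXNRD2, the mitochondrial enzyme, was at 2.48 without and 4.97 with Bru in U251, and at 1.88 and 2.48 in U87, where its ratio was 0.39 (0.18 to 0.63). In U251 its log2 ratio was 0.97 (0.83 to 1.17), just inside 2-fold. Without the pseudocount it was 1.001, just past 2-fold. TXNRD2 passed 2-fold in U251 under 4 of the other scalings. TXNRD3, a relative found mostly in testis, was at 1.82 and 1.57 in U251 and at 1.51 and 1.12 in U87, with ratios of -0.20 (-0.58 to 0.16) and -0.41 (-0.89 to 0.01) that did not pass the counting error.

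DIO2, the deiodinase that activates thyroid hormone, was at FPKM 3.37 and 6.36 in U251 and at 1.79 and 1.99 in U87, with log2 ratios of 0.90 (0.76 to 1.07) and 0.14 (-0.11 to 0.41). SELENON, a protein of the endoplasmic reticulum linked to calcium handling in muscle, stood at 20.9 and 11.9 in U251 and at 38.2 and 28.2 in U87, with ratios of -0.80 (-0.92 to -0.70) and -0.44 (-0.52 to -0.36). SELENOO, a mitochondrial protein that attaches AMP to other proteins, was at 18.5 and 12.2 in U251 and at 14.1 and 9.55 in U87, with ratios of -0.59 (-0.75 to -0.44) and -0.56 (-0.75 to -0.38). SELENON and SELENOO were thus lower with Bru in both lines, as SELENOF was, beside 18.0% of all tested genes. SELENOH, SELENOI, MSRB1 and SEPHS2 ranged from -0.11 to 0.28 in U251 and from -0.10 to 0.09 in U87. GPX2, GPX6, DIO1, DIO3 and SELENOV were below the level for testing, and GPX6 had 0 reads in all 4 libraries.

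**Figure D3:**
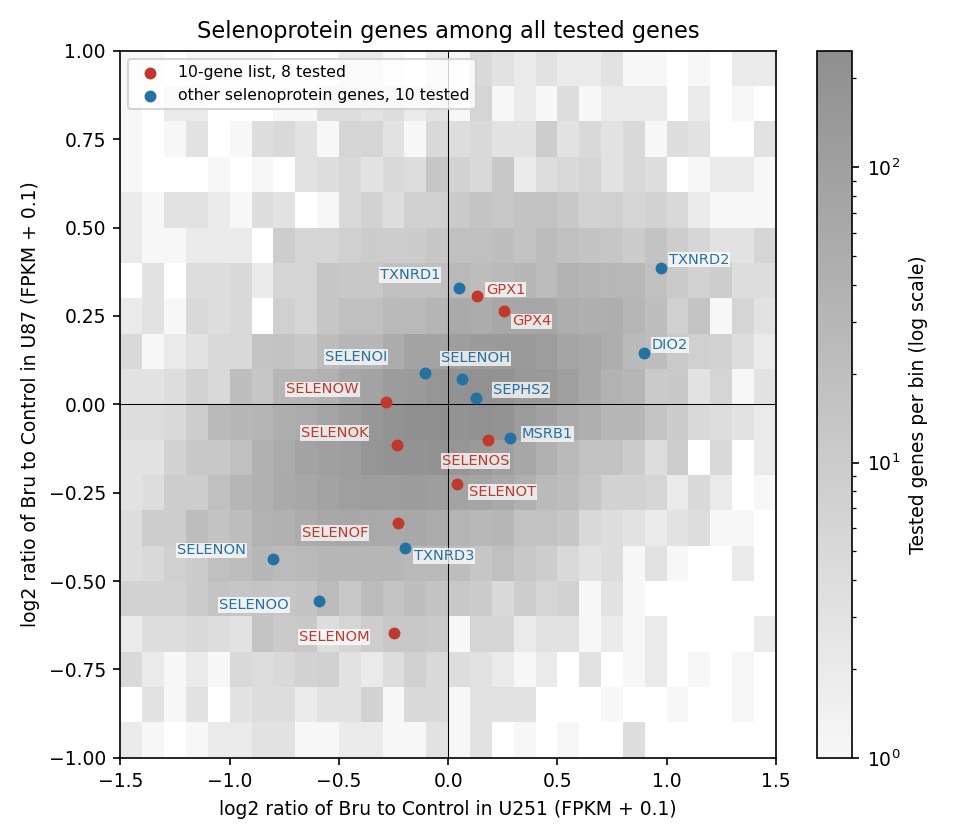
Log2 ratio of Bru to Control in U251 (x axis) and U87 (y axis) on FPKM + 0.1, with 8 tested members of the list in red, 10 tested other selenoprotein genes in blue and the number of all tested genes per bin in grey. GPX1, GPX4, TXNRD1, TXNRD2, DIO2, SELENOH and SEPHS2 lie above 0 in both lines, with TXNRD1 at 0.05 in U251. SELENOF, SELENOM, SELENOK, TXNRD3, SELENON and SELENOO lie below 0 in both, and the rest have opposite signs. Counting intervals are not drawn.

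Among 12 genes listed for the synthesis, insertion or turnover of selenocysteine, or for binding the SECIS element, 11 were tested. Of these, 0 passed 2-fold with Bru in either line, beside 8.80% and 3.34% of all tested genes, with medians of 0.08 for U251 and 0.05 for U87 on the log2 scale. The interval lay above 0 for 5 and below 0 for 2 of the 11 in U251, beside 30.9% and 35.9%, and above 0 for 2 and below 0 for 3 in U87, beside 15.7% and 28.0%. SECISBP2, which binds the SECIS element, was at FPKM 4.504 and 3.96 in U251 and at 4.95 and 4.46 in U87. EEFSEC, the elongation factor, was at 7.05 and 7.47 in U251 and at 2.74 and 2.94 in U87. SEPSECS, which makes selenocysteine on its tRNA, was at 1.64 and 2.33 in U251, a log2 ratio of 0.48 (0.24 to 0.77), and at 1.84 and 1.93 in U87. SCLY, which frees selenium from selenocysteine, was not tested, at 0.317 and 0.418 in U251 and at 0.410 and 0.514 in U87. RPL30, a ribosomal protein that also binds the SECIS element, had the largest ratio of the list, 0.70 (0.63 to 0.78) in U251 and 0.32 (0.26 to 0.39) in U87.

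Genes listed for the supply, recycling or breakdown of glutathione, the substrate of GPX1 and GPX4, were 9, and 8 were tested. Of these, 1 passed 2-fold with Bru in U251 and 0 in U87, beside 8.80% and 3.34% of all tested genes. SLC3A2, the heavy chain of the cystine importer and of other amino acid transporters, was at FPKM 47.7 without and 154 with Bru in U251, or 1.69 on the log2 scale (1.65 to 1.74), and at 65.9 and 99.6 in U87, a ratio of 0.60 (0.55 to 0.64). SLC7A11, the light chain that gives the importer its specificity, was at 18.9 and 16.0 in U251 and at 3.68 and 4.65 in U87. GCLC and GCLM, the catalytic and modifier subunits of the first enzyme of glutathione synthesis, had ratios of 0.35 (0.23 to 0.47) and 0.54 (0.46 to 0.62) in U251 and of 0.37 (0.21 to 0.56) and 0.18 (0.03 to 0.33) in U87. In U251 the interval lay above 0 for 4 of 8 and below 0 for 4 of 8, beside 30.9% and 35.9% of all tested genes. Those below 0 were SLC7A11, GSR, which recycles glutathione, and CHAC1 and GGT7, listed for its breakdown, at -0.60 each. In U87 the interval lay above 0 for 5 and below 0 for 0, beside 15.7% and 28.0%.

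Among the glutathione peroxidases that carry cysteine in place of selenocysteine, GPX5 and GPX7 had 0 reads in all 4 libraries. GPX8, which sits in the endoplasmic reticulum, was at FPKM 25.05 and 19.2 in U251 and at 35.0 and 27.4 in U87. Its log2 ratio came to -0.38 (-0.48 to -0.28) in U251 and -0.35 (-0.44 to -0.26) in U87, on the other side of 0 from GPX1 and GPX4.

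The genes listed as partners of the members in the endoplasmic reticulum and at the cell surface were mostly lower with Bru. Of 10 genes, 8 were tested, and the interval lay below 0 for 6 of 8 in each line, beside 35.9% and 28.0% of all tested genes. The list was chosen with earlier results of these data known, so this count is no support for a shift of partners in general. VCP was at FPKM 163 and 109 in U251 and at 153 and 132 in U87. UGGT1, the partner of SELENOF, was at 20.6 and 15.04 in U251 and at 12.9 and 10.9 in U87, and UGGT2, its close relative, had ratios of -0.71 (-0.87 to -0.58) and -0.57 (-0.74 to -0.42). ZDHHC6, the partner of SELENOK, had ratios of -0.25 and -0.27. DERL3, too low to be tested, had 25 and 4 reads in U251 and 13 and 5 in U87. DERL2 went the other way in U251, at 0.56 (0.45 to 0.68), and was at 0.01 in U87. LRP8 was the 1 tested gene of 8 past 2-fold in U251, at -1.18 (-1.32 to -1.08), beside 8.80% of all tested genes. In U87 LRP8 was at -0.42 (-0.53 to -0.33), and 0 of 8 passed 2-fold, beside 3.34%.

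Promoters of the members were searched for the core of the antioxidant response element, the site bound by NRF2, as TGACNNNGC on both strands in the 300 bases around each start (RefSeq, GRCh38.p14). It was present in 2 of the 12 promoters of the members, those shown for SELENOK and SELENOP, and in 13.3% of all 35116 promoters. The matches are shown with 8 flanking bases in lower case and the motif in capitals, together with 1 of the 3 matches found for TXNRD1, a known NRF2 target.
SELENOK: cgcagatgTGACGATGCaaaaacgc
SELENOP: tcttgcagTGACCTTGCaagcagag
TXNRD1: acgggctaTGACTTCGCtgttgtca
The windows searched are chr3:53891810-53892109 for SELENOK, chr5:42811843-42812142 for SELENOP and chr12:104215529-104215828 for TXNRD1. The motif lies on the strand of the gene in SELENOK and TXNRD1 and on the other strand in SELENOP. A match in letters is not a bound site. With Bru, SELENOK was at -0.24 (-0.38 to -0.10) in U251 and -0.12 (-0.25 to 0.02) in U87. TXNRD1 was at 0.05 and 0.33, and a part of NRF2 in these ratios was not tested.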

How the data were processed

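RNA from U251 and U87 cells was sequenced as Control and after Bru, with 1 library per condition. The kit was NEB Next Ultra. The submitters' processing notes name HISAT2 2.0.5, StringTie 1.3.3b, featureCounts 1.5.0-p3, DESeq2 1.16.1 and the build hg18, whereas the coordinates of the 58735 genes in the files are those of GENCODE release 29 (GRCh38), the annotation used here. The authors deposited FPKM per gene with the gene length in bases. Whole reads were recovered from FPKM multiplied by length, for 100% of values within 0.05 reads, and add up to 21453561 without and 17847910 with Bru in U251, and 18260975 without and 17083896 with Bru in U87. For a gene of 1 kilobase, 3 reads correspond to 0.143 to 0.172 FPKM in these libraries.

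Log2 ratios were taken on FPKM + 0.1 where the mean FPKM was 1 or more, and an absolute value above 1 was counted as past 2-fold. Intervals are exact Clopper-Pearson intervals at 95% of how a gene's reads divide between 2 libraries, and exact conditional intervals of the odds ratio for the difference between lines. They cover counting error only. With 1 library per condition no test was run. Named genes are the members, the tested other selenoprotein genes and the 3 of each further list with the largest mean change in both lines. SECISBP2, EEFSEC, SLC7A11, GSR, CHAC1, GGT7, VCP, UGGT1, ZDHHC6 and DERL2 were added after their values were seen. The members and lists were chosen with earlier results of these data known. Alternatives were a pseudocount of 1 or 0.01, minimum mean FPKM of 0.1, 5 or none, other scalings and protein-coding genes only. Levels per transcript length were added after the data were seen. Recovery and intervals were tested on simulated data. Python 3.11.15, NumPy 2.4.6, pandas 2.3.3, SciPy 1.17.1 and matplotlib 3.10.9 were used.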

Additional observations from a re-analysis of the deposited data

Results flagged for a closer look

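For 5 of the 18 tested selenoprotein genes the log2 ratio of Bru to Control had opposite signs in the lines. With 1 library per condition, the difference was not tested over replicates. The share of all tested genes with opposite signs was not computed, so the count is no result about the family. SELENOW was at -0.28 in U251 and 0.01 in U87, a difference of 0.29. SELENOS was at 0.18 and -0.10, a difference of -0.28. SELENOT was at 0.04 and -0.22, a difference of -0.26. SELENOI was at -0.11 and 0.09, a difference of 0.19. MSRB1 was at 0.28 and -0.10, a difference of -0.38. The value in 1 of the lines lay within its counting interval of 0 for SELENOW, SELENOS, SELENOT and MSRB1, and both values did for SELENOI.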

How the results depend on the processing

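The ratios of the 10 members kept their sign under all 7 other scalings and pseudocounts. Of 280 values of these ratios and of their differences between lines, 267 lay within the counting interval of the reported value and 13 beyond it. For GPX4 the difference between lines, near 0, took either sign. Leaving out a replicate was not possible with 1 library per condition. No paired analysis was possible because each condition has 1 library. The median of the members for U87 against U251 in Control, 0.11, was -0.16 with a mean FPKM of at least 5. In Control, 2 members in place of 1 were over 2-fold lower in U87 under TPM, TPM without mitochondrial genes and the upper quartile (SELENOF was added), and 3 or 0 in place of 1 were over 2-fold higher with a minimum of 0.1 or none, and of 5. Among the other selenoprotein genes, TXNRD2 made 1 past 2-fold upward in U251 under TPM, a median of 0, total reads and the upper quartile. Without a filter or with 0.1, DIO1 made 1 downward in U251 and there was 1 downward in Control, and without a filter DIO3 made 1 upward in U87.

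Over all genes, the counts past 2-fold depended on the filter. With a minimum of 0.1, of 5 and with none, genes past 2-fold upward in U251 were 1782, 150 and 2424 in place of 435, downward 1945, 323 and 2539 in place of 705. In U87 they were 1627, 38 and 2531 upward in place of 249, and 1174, 45 and 1804 downward in place of 183. For U87 against U251 in Control they were 4400, 855 and 5283 upward in place of 1873, and 4445, 866 and 5257 downward in place of 2069. A pseudocount of 1 gave 197 upward and 419 downward in U251, and 113 and 77 in U87. Protein-coding genes alone gave 223 upward in U251, and 32 upward and 64 downward in U87. GPX1 is annotated as a polymorphic pseudogene in the files and is dropped by that filter. The cause of these shifts beyond the number of genes tested was not tested. Per transcript length, SELENOW, whose gene length is 5.92 times that of its transcript, moved from rank 7 to rank 4 in U251 Control. Reads of SELENOM, GPX3 and SELENOP limit what can be seen in U251.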
